A study of Mus musculus with 3 samples.

Results

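The regions described here are signals on tiling arrays of amplified 5′ ends from the mouse olfactory epithelium that lie far from every olfactory receptor promoter the authors named. Which transcripts they come from is not given by the files. They were chosen by position on the Stringent array: a region called by the authors was a member where its nearest edge lay over 10000 bp from each of the 1085 positions in the named-promoter table. This held for 479 of the 3608 Stringent regions, or 13.3%. Another 627 regions spanned a named position and 2502 lay within 10000 bp of one. Since the Stringent calls chose the members, their Stringent scores and lengths are descriptions with no test, and only the High Coverage arrays carry values that the choice did not use.

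The study mapped where receptor transcripts start in the olfactory epithelium of C57/Bl6 mice, adults aged 6 to 8 weeks, with the tissue of 5 mice in each sample and no treatment in the labels. RLM-RACE ligates an RNA oligonucleotide to the 5′ end of decapped mRNA, so that amplified products begin at the cap. Degenerate primers for the coding part of receptors started the reverse transcription, and tiling arrays read the products. The Stringent group is 1 array of a nested PCR product and the High Coverage group is 2 arrays of a product made without nesting. The headers call the High Coverage 1 input female and the High Coverage 2 input male, so sex and array cannot be told apart. With 3 arrays in all and 1 in the Stringent group, no test with arrays as units was possible, and the number of arrays limits the precision. Intervals below are exact Clopper-Pearson intervals at 95% and cover counting error only. Members close to each other share probes and are not independent.

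Odorant receptors form the largest gene family of the mouse, and each olfactory sensory neuron expresses very few of its genes. The genes lie in clusters in which coding receptors, receptor pseudogenes and, at some loci, other families alternate. The coding part usually sits in 1 exon, preceded by short noncoding exons that can begin some kilobases upstream, so a transcript start can lie well away from the coding sequence. A start far from all named promoters is therefore of interest as the possible start of a receptor, or a receptor pseudogene, that the table leaves out.

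The deposited coordinates are of build mm9, for which no genome sequence was used here, so the sequences of the regions themselves are not printed. For the genes raised below as candidates, the RefSeq windows of build GRCm38.p6 are the sequences at hand. A candidate is the only protein-coding receptor without a named promoter that lies, by gene order, between a pair of neighbouring named promoters with at least 1 far region between them. Of 26 such genes, 19 had a window of 250 bases before to 50 bases after the annotated start. The following 3 are shown because they are the candidates of the highest-scoring regions that are also the only annotated gene in their gap. Capitals mark matches on either strand to TAATNA, a core bound by homeodomain proteins, and to TATAAA, the TATA box. Matches may overlap.
Olfr854, chr9:19567333-19567632, minus strand: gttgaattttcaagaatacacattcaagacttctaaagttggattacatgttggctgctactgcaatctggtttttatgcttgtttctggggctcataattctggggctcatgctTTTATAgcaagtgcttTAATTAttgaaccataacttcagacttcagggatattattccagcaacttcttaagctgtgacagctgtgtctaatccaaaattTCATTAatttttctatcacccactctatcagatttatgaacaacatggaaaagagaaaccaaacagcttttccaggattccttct
Olfr1220, chr2:89097914-89098213, minus strand: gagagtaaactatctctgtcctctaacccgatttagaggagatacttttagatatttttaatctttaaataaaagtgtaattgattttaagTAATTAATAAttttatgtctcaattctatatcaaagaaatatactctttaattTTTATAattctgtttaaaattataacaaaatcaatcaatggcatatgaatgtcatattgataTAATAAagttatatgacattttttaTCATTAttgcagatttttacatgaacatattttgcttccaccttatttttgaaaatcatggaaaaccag
Olfr1096, chr2:86874753-86875052, minus strand: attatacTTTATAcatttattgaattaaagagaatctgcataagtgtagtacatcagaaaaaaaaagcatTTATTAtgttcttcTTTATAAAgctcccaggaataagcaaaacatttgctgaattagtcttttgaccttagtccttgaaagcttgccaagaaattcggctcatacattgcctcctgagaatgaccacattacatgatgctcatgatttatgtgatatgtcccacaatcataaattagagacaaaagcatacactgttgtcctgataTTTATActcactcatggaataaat

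TAATNA was present in 13 of the 19 candidate windows, or 68.4%, against 65.8% of 948 receptor windows, and TATAAA in 47.4% against 41.03%. In 72.4% of all receptor windows the annotated start was an ATG, and in 13 of the 19 candidate windows, so for most of these genes the window lies before the start codon of a model without upstream exons and not before a mapped transcript start. A match in such a window is a description and not a binding site.

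Far regions were weaker and shorter on the array that chose them. The MAT score, a score of how far the probes of a window stand above the brightness predicted from their sequence, had a median of 4.06 over the members and reached 26.27. Regions within 10000 bp of a named position had a median of 9.67, and those that span one 12.81. Of the members, 235 scored under 4, close to the authors' threshold of 2.52, and 65 scored 8 or more. The median length was 180 bp against 284 bp for the regions nearer to a promoter, with quartiles of 143 and 294.5 bp. Members held a median of 14 scored probes and the nearer regions 50. Whether this bears on the High Coverage comparisons below was not tested. Some calls nearly touched. A member began within 10 bp of the end of the member before it in 55 cases, and joining these left 424 stretches.

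The members spread from just beyond the limit to other parts of the genome. Their median distance from the nearest named position was 27435 bp, 174 lay within 20 kb, 122 lay over 100 kb away, and another 4 were on chromosomes 5 and 18, which have no named position. The 5 members just outside it lay 10058, 10060, 10101, 10164 and 10220 bp away, on chromosomes 2, 7, 11, 2 and 16, with Stringent scores from 5.28 to 6.97. The 5 regions just inside lay between 9601 and 9807 bp, with scores from 2.81 to 10.21, a range that takes in the scores just outside.

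Chromosome 2 held 87 members, chromosome 7 held 85, chromosome 9 held 59, chromosomes 13 and 17 held 49 each and chromosome 11 held 33. Only chromosome 12 of the 20 tiled chromosomes held none, with 757 scored probes in reach of the rule. Relative to the probes that the arrays place over 10000 bp from a named position, the order was different. Chromosomes 9 and 2 had 18.5 and 18.3 members per 10000 such probes, chromosome 17 had 15.5 and chromosome 15 had 12.8, against 5.82 over all chromosomes and 22.9 regions per 10000 probes nearer to promoters. Chromosome 13, with many members, had 2.93, and chromosome 1 had 0.502. The members of chromosomes 2 and 9 also had the higher median scores, 5.77 and 6.55, against 3.27 on chromosome 13 and 3.35 on chromosome 17.

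**Figure D1:**
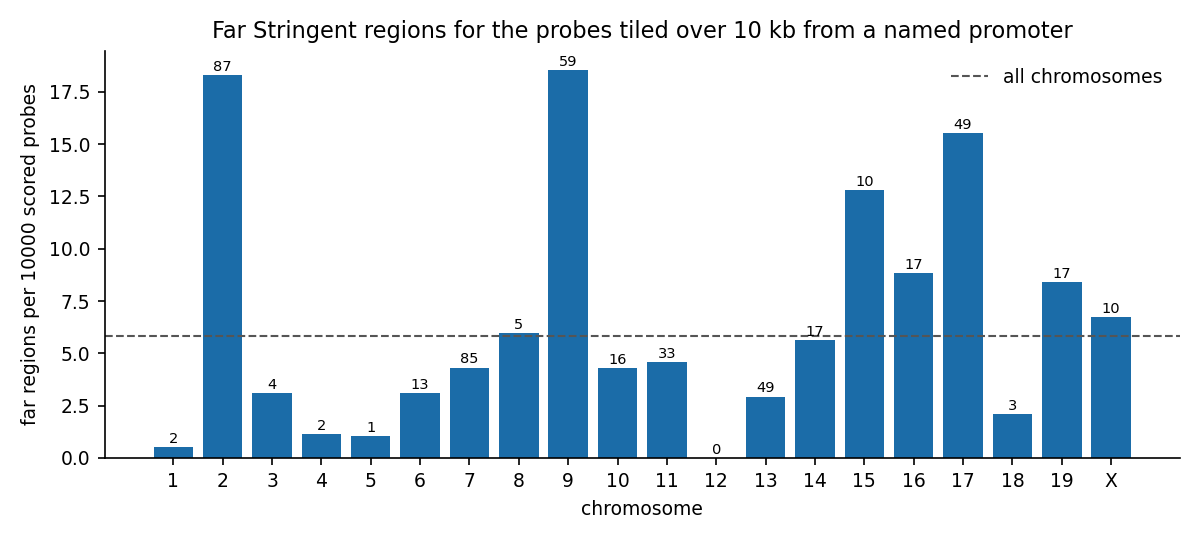
Far Stringent regions per 10000 scored probes that lie over 10000 bp from a named promoter, by chromosome, with the number of regions above each bar and the value over all chromosomes, 5.82, as a dashed line. Chromosomes 9, 2, 17 and 15 stand above 12 and chromosome 13, with 49 regions, at 2.93.

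Members were less dense farther from promoters, and the sides of the promoter differed in part of the range. From 10000 to 15000 bp there were 15.5 members per 10000 probes downstream, in the direction of transcription of the nearest named receptor, and 15.6 upstream. From 20000 to 50000 bp there were 6.91 downstream and 13.7 upstream. Beyond 50000 bp both sides were low, at 3.19 and 3.56. Which gene the signal on either side belongs to was not determined.

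The next comparison asks whether the same places gave signal on the arrays of the product made without nesting. High Coverage 1 had a called region over 241 members, or 50.3% (45.7 to 54.9), against 50.8% of all Stringent regions. High Coverage 2 had one over 224 members, or 46.8% (42.2 to 51.3), against 55.4%. Both arrays had one over 190 members, or 39.7% (35.3 to 44.2), against 42.4%, and neither had one over 204, or 42.6% (38.1 to 47.2), against 36.2%. All these shares of the members lay near the background of all Stringent regions, apart from the lower share on High Coverage 2 and the higher share without any. The remaining 85 members had a region on High Coverage 1 alone in 51 cases and on High Coverage 2 alone in 34. The lists were called at unlike cutoffs, with MAT score thresholds of 2.53 and 2.99 on High Coverage 1 and 2, so a missing call does not show that signal was absent.

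Windows of the same length 1000 bp to each side of the members give the local level. Of 958 such windows, 512 were tiled and held no Stringent region, and of these 8.79% (6.48 to 11.6) had a High Coverage 1 region, 8.40% (6.14 to 11.1) a High Coverage 2 region and 4.30% (2.71 to 6.43) both. The highest High Coverage 1 score in a member stood at a median percentile of 95.2 (93.5 to 95.8) among the scored probes of its array, and that of High Coverage 2 at 93.6 (92.8 to 94.7). The flanking windows had medians of 77.5 and 73.8. Set against its own usable flanks, a member had the higher score on High Coverage 1 in 286 of 371 cases, or 77.1% (72.5 to 81.3), and on High Coverage 2 in 285, or 76.8% (72.2 to 81.0). The 204 members without a High Coverage region had median percentiles of 81.2 on either array, and of the 143 with a usable flank, 75 and 73 exceeded it. On both arrays, 181 members were above the 95th percentile. At the other end, 54 members had no probe above a score of 0 on High Coverage 1 and 45 had none on High Coverage 2.

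Both High Coverage arrays ranked the members alike. Over the 479 members their highest scores had Pearson's r = 0.851 and Spearman's rho = 0.800, as a description over regions that share loci and probes. Over regions within 10000 bp of a promoter these were 0.740 and 0.749, so the likeness of both arrays was not particular to the members. The highest Stringent score of a probe in a member, which can differ from the score of the called region, had r = 0.112 with High Coverage 1 and 0.221 with High Coverage 2. These values were 0.229 and 0.402 over the 128 members in tiled blocks without a named promoter and 0.0901 and 0.190 over the other 351. Over regions within 10000 bp of a promoter they were 0.418 and 0.479.

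**Figure D2:**
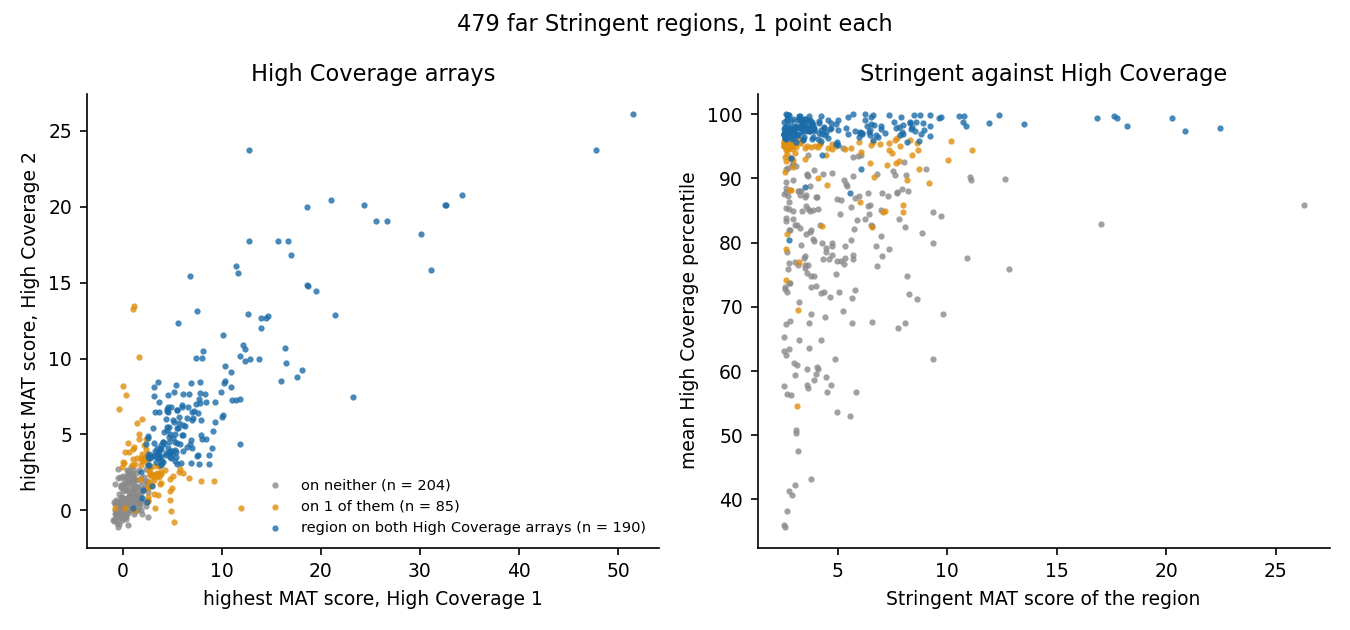
Each point is 1 of the 479 far regions. Left, its highest MAT score on High Coverage 1 and on High Coverage 2; right, its Stringent MAT score and the mean of its percentiles on both High Coverage arrays, with colours for a called region on both arrays (190), on 1 (85) or on neither (204). High values on 1 High Coverage array go with high values on the other, while regions of every class occur at Stringent scores under 5.

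The share of members seen on both arrays did not rise steadily with the Stringent score, and neither did that of regions nearer to promoters. With scores under 4 it was 41.3% (34.9 to 47.9) of 235 members against 30.4% (27.2 to 33.9) of 749 regions within 10000 bp of a promoter. From 4 to 8 it was 33.5% against 27.4%, and from 8 upwards 50.8% (38.1 to 63.4) against 53.5% (51.2 to 55.9). The intervals of members and nearer regions overlap in the upper bands and not in the lowest. The difference between bands was not tested. The score bands were chosen after the values were seen.

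**Figure D3:**
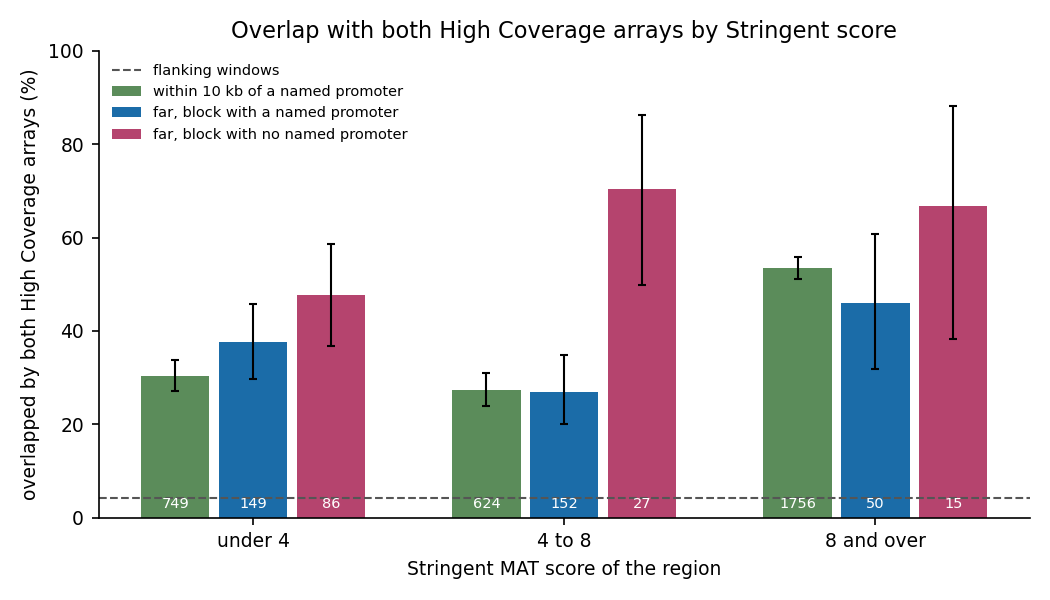
Share of Stringent regions overlapped by regions of both High Coverage arrays, by band of the Stringent MAT score, for regions within 10 kb of a named promoter and for far regions in tiled blocks with and without a named promoter. Bars are shares with exact 95% intervals, numbers in the bars are regions, and the dashed line is the 4.30% of flanking windows; far regions in blocks without a named promoter had the highest share in each band, 47.7%, 70.4% and 66.7%.

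Where a High Coverage region was called, the median offset from the Stringent to the High Coverage peak was 21 bp on both arrays, and peaks lay within 25 bp for 56.4% of the 241 members on High Coverage 1 and 56.7% of the 224 on High Coverage 2. The upper quartiles of the offset were 60 and 62 bp. For Stringent regions that span a named position, 46.3% and 55.6% of the peaks lay within 25 bp. In the 25 bp just after the Stringent peak, members seen on both arrays had a median score of 3.59 on Stringent itself, with 4.81 for High Coverage 1 and 4.54 for High Coverage 2. Members seen on neither had a Stringent median of 3.62, as high as the first class, with medians of -0.06 and -0.05 on the High Coverage arrays. Both classes thus had Stringent peaks of like height.

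**Figure D4:**
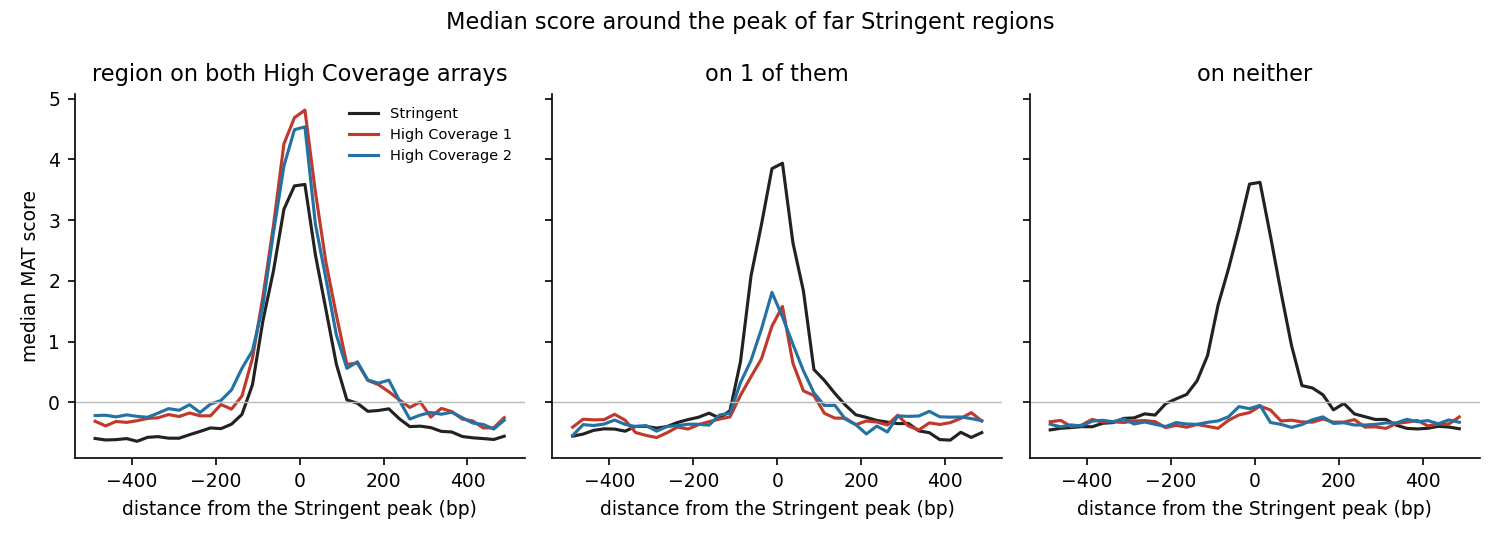
Median MAT score in bins of 25 bp within 500 bp of the Stringent peak of far regions, for the 3 arrays, in panels for regions called on both High Coverage arrays, on 1 of them and on neither. The Stringent peak is of like height in all panels, and the High Coverage lines peak above 4 in the first panel and stay below 0 in the third.

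Scores of different arrays are given side by side below but are on unlike scales. The 95th percentile of all scored probes was a score of 5.49 on Stringent, 2.33 on High Coverage 1 and 3.10 for High Coverage 2. The strongest far region, chr9:19371349-19371958, was called on the Stringent array alone. Its Stringent score was 26.27, against 0.83 for High Coverage 1 and 0.97 for High Coverage 2 at their highest, with no called region there. It lies 14419 bp upstream of the named position of Olfr855, in the gap that by order holds the coding receptor Olfr854. The next, chr2:88937623-88938256, had a Stringent score of 22.47, with 4.55 and 7.62 on High Coverage 1 and 2 and regions on both, in the gap of Olfr1220, which also holds the named position of an unannotated pseudogene 10648 bp away. A region before the first named position of its chromosome, chr9:18559616-18560152, scored 20.83, 3.17 and 8.14, again on all 3 arrays. chr2:89891804-89892785, in the gap of Olfr140, scored 20.25, 14.6 and 12.8. chr2:85703458-85704030, in the gap of Olfr1022, scored 18.19, 5.34 and 8.26. Of the 10 members with the highest Stringent scores, 8 had a region on both High Coverage arrays and 2 on neither.

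The next 3 in that order lie together downstream of Olfr287 on chromosome 15, and show both patterns side by side. chr15:98038309-98039553 scored 17.6 on Stringent, with 19.6 and 14.4 on High Coverage 1 and 2, and chr15:98040338-98040637 scored 17.73, 12.64 and 12.95. The region between them, chr15:98039821-98040095, scored 17.03 on Stringent but 0.16 and 1.97 on the High Coverage arrays, with no called region. chr9:38951571-38952107, downstream of Olfr27, scored 16.84, 14.4 and 12.7. The last of the 10, chr7:114272441-114272822, scored 13.51, 6.89 and 8.40.

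Other strong members without a High Coverage region were found on chromosomes 2, 9, 11 and 16. chr11:73539156-73539550, 54801 bp downstream of Olfr389, scored 12.8 on Stringent against 0.31 and 0.22. chr9:20119009-20119284, near Olfr873, scored 12.63 against 1.02 and 1.93. chr9:39616304-39616679, near Olfr970, scored 11.07 against 1.204 and 1.498. chr2:86714723-86714880, upstream of Olfr1095, scored 11.06 against 0.82 and 2.89. The others of the first 10 scored between 9.35 and 10.89 on Stringent, and the highest High Coverage score among them was 1.65.

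The far regions highest on the High Coverage arrays were other regions than those highest on Stringent. Ranked by the lower of both High Coverage percentiles, 7 of the first 10 lie on chromosome 13 downstream of Olfr1359, and no region is among the first 10 of both rankings. chr13:21807759-21808049 scored 6.23 on Stringent, with 51.5 and 26.1 on High Coverage 1 and 2, and chr13:21901792-21902097 scored 5.71, 47.8 and 23.7. The 3 outside chromosome 13 were chr9:49606717-49607079, 9.61 Mb beyond Olfr986, with 7.35, 21.1 and 20.4, chr17:37512517-37512747, upstream of Olfr107, with 8.5, 24.3 and 20.1, and chr7:105293408-105294036, 1.58 Mb from Olfr520, with 6.63, 25.6 and 19.1.

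In the tiled block past Olfr1359, 24 members lay 18.0 to 721 kb downstream, and 17 of them, or 70.8% (48.9 to 87.4), had regions on both High Coverage arrays. Their median Stringent score was 3.48, below the median of all members, while their median percentiles on the High Coverage arrays, 99.1 and 98.5, were above those of all members. Several scored near the Stringent threshold and at the top of the High Coverage arrays. chr13:21813368-21813511 scored 2.76 on Stringent, and 32.6 and 20.1 on High Coverage. The values of chr13:21878776-21878914 were 2.74, 32.6 and 20.1, and both regions stood above the 99.8 percentile of either High Coverage array. By gene order in the reference table, the first 18 protein-coding genes past Olfr1359 are all histone genes, which encode the proteins that package DNA, and 23 of the 26 coding genes before the first vomeronasal receptor are. Which gene each region falls in was not determined, since the table is of another build. A further 19 members in the tiled blocks that follow lay 794 to 1755 kb downstream, with median High Coverage percentiles of 96.2 and 95.4, and 10 had regions on both arrays.

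**Figure D5:**
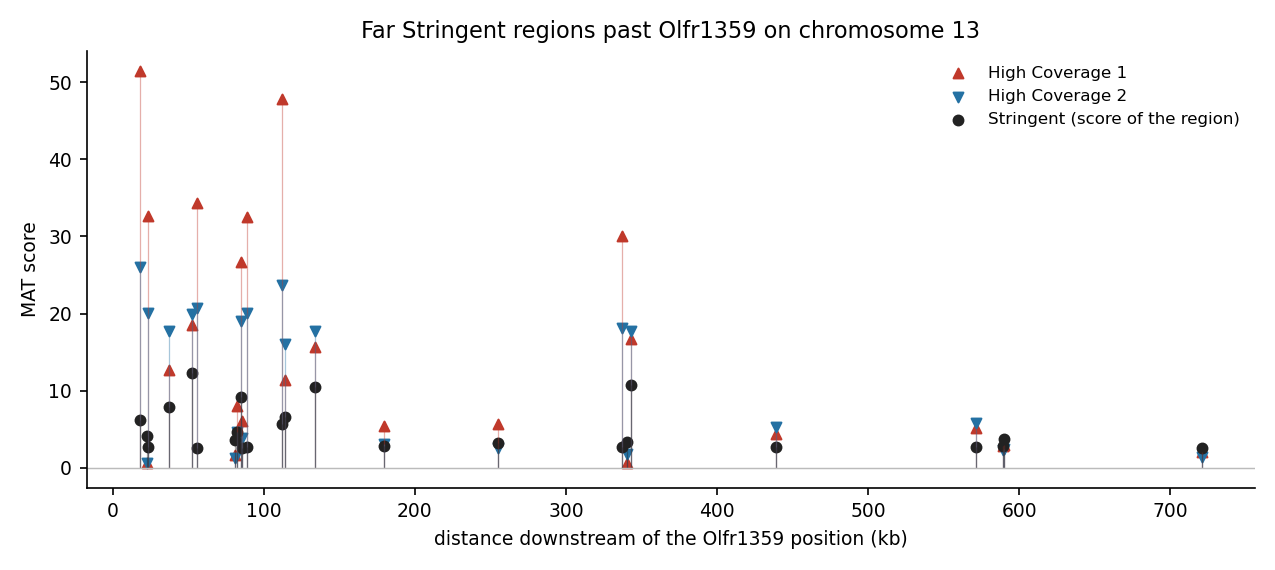
MAT scores of the 24 far regions in the tiled block past Olfr1359 on chromosome 13, by distance downstream of its named position in kb. Points are the Stringent score of the region and its highest score on High Coverage 1 and 2; Stringent scores lie between 2.60 and 12.35, while High Coverage 1 reaches 51.5 at 18.0 kb and 47.8 at 112 kb, on scales that are each array's own.

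The members were grouped within the tiled blocks, runs of probes with gaps of at most 10000 bp. Of 275 blocks, 129 held a member. The 174 blocks with a named promoter held 351 members in 87 blocks, and the 101 blocks without one held 128 members in 42 blocks, with 6.989 and 3.9965 members per 10000 far probes. Members in the blocks without a named promoter had the lower median Stringent score, 3.295 against 4.46, and the higher share on both High Coverage arrays, 54.7% (45.7 to 63.5) of 128 against 34.2% (29.2 to 39.4) of 351. Their flanking windows had both in 5.06% (2.21 to 9.73) and 3.95% (2.18 to 6.55) of cases. Members over 100 kb from a promoter were on both arrays in 57.4% (48.1 to 66.3) of cases, against 32.1% (23.5 to 41.7) from 10 to 15 kb. This is not a separate comparison, since many of the same regions are in both sets. All 45 members in chromosome 7 blocks without a named promoter, for example, lay over 100 kb away. The sets also differed in tiling. Members in blocks without a named promoter held a median of 22 scored probes, against 11 in the other blocks. Over 100 kb away the median was 23, against 11 from 10 to 15 kb. Whether the number of probes bears on these shares was not tested.

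The block with most members, chr17:37187977-38573077, held 44 among 42 named positions, and 33 of the 44, or 75% (59.7 to 86.8), had regions on both High Coverage arrays. As percentiles of each array's own probes, the medians there were 94.0 on Stringent, 98.5 on High Coverage 1 and 96.8 for High Coverage 2. Chromosomes 2 and 9, with the highest density of members, had 39 of 146 members on both arrays, or 26.7% (19.7 to 34.7), at a median Stringent score of 5.82. Among chromosomes with at least 10 members, the lowest shares were those of chromosome 19, with 1 of 17 at a median score of 3.64, and chromosome 6, with 1 of 13 at 4.10. Chromosome 16, with a median score of 6.41, had 7 of 17. Without chromosomes 13 and 17, the share of members on both arrays was 33.1% (28.4 to 38.0) of 381. The share on both arrays thus did not follow the Stringent score across chromosomes in 1 direction.

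Among blocks with no named promoter, chr2:88445161-88500380 had the most members, 13, of which 7 were on both arrays. Their median Stringent score of 8.31 was well above that of all members, with a highest score of 11.9. The block lies between Olfr1189 and Olfr1193, and by order the reference table places 4 receptor pseudogenes and no other gene there, Olfr751-ps1, Olfr475-ps1, Olfr1191-ps1 and Olfr1192-ps1. Another block, chr7:8987865-9380404, had 12 members with scores of at most 4.41, all with a High Coverage 1 region and 9 with a High Coverage 2 region. The 45 members in chromosome 7 blocks without a named promoter were on both arrays in 31 cases, at a median Stringent score of 2.98. A block of only 6.11 kb, chr7:105289877-105295986, held 8 members within 2046 bp, with scores of up to 6.63 and 5 on both arrays. By order it lies between Olfr292 and Olfr520, among 67 coding genes outside the receptor families that include Omp, the marker of mature olfactory sensory neurons, but which gene it covers was not determined.

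Runs of members with gaps of at most 10000 bp formed 265 groups, of which 156 were single regions and 109 held 2 or more, with 323 members. Single regions were on both High Coverage arrays in 53.2% (45.1 to 61.2) of cases and grouped ones in 33.1% (28.0 to 38.6). The 55 members that began within 10 bp of the one before all count as grouped. The shares of single and grouped regions were not computed after joining them. The largest group had 10 members over 12103 bp, chr2:88480611-88492713, in the pseudogene stretch above, with 5 on both arrays. Groups of 8 lay at chr2:89592544-89597064, with 0 on both, at chr7:105291991-105294036, with 5, and at chr14:51567499-51583455, with 4. Another 4 groups tied at 6 members. One of them, chr9:39494091-39500615 near Olfr149, had no High Coverage region over any of its 6 members, and another, chr17:38389513-38404414, had 5 of 6 on both arrays.

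To find candidate receptors, each member was placed between its neighbouring named promoters, and the genes between the same neighbours were read from a reference gene table by order alone. This was possible for 411 members, while 66 lay beyond the outermost matched promoter of their chromosome or on a chromosome with none, and 2 where the order differed. Of the 411, 93 or 22.6% (18.7 to 27.0) lay in a gap that holds a protein-coding receptor without a named promoter. A further 225, or 54.7% (49.8 to 59.6), lay in gaps with receptor pseudogenes but no such coding gene, 69 or 16.8% in gaps with only other coding genes, and 24 in gaps with none of these. Members in gaps with an unnamed coding receptor were on both High Coverage arrays in 32.3% (22.9 to 42.7) of cases, those in gaps with receptor pseudogenes but no such receptor in 35.6% (29.3 to 42.2), and those in gaps with only other coding genes in 59.4% (46.9 to 71.1). Wide gaps carried much of this contrast. The gap from Olfr1350 to Olfr291 on chromosome 7, of 85.5 Mb, gave 35 of the 69 members of the last class and 25 of its 41 on both arrays. The gap from Olfr1359 to Olfr466 on chromosome 13, of 43.5 Mb, holds 1 receptor pseudogene beside 338 other coding genes and gave 46 of the 225 members and 28 of their 80 on both arrays. In gaps of at most 1 Mb the shares were 30.6% (21.0 to 41.5) with an unnamed coding receptor, 28.4% (21.7 to 35.8) with pseudogenes but no such receptor, and 47.1% (23.0 to 72.2), or 8 of 17, with only other coding genes, and the intervals overlapped. All 24 members in gaps with none of these genes lay in gaps of this width. Of these, 13 were on both arrays, or 54.2% (32.8 to 74.4), so a high share was not particular to gaps with other coding genes. None of the 69 with only other coding genes scored 8 or more on Stringent, against 38 of the 225. Such scores were found in 16 of the 93 with an unnamed coding receptor and in 7 of the 24 with none of these genes. Over all 479 members they were found in 65.

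Gaps with a member more often held an unnamed coding receptor, in 33 of 133 or 24.8% (17.7 to 33.0) against 41 of 368 or 11.1% (8.11 to 14.8) of tiled gaps without a member, but they were also wider and had more far probes, with medians of 515 and 99.5. Gaps of at most 1 Mb were therefore compared in bands of the number of far probes. With 1 to 100 probes, 1 of 6 gaps with a member and 9 of 184 without one held an unnamed coding receptor, and 3 of 6 and 27 of 184 a receptor pseudogene, too few gaps with a member to compare. With 100 to 500 probes, 5 of 59 gaps with a member and 11 of 124 without one held an unnamed coding receptor, or 8.47% (2.81 to 18.7) and 8.87% (4.51 to 15.3). With 500 or more, the shares were 45.5% (32.0 to 59.4) of 55 and 42.2% (27.7 to 57.8) of 45. The intervals overlapped in these bands. For receptor pseudogenes they did not overlap in the middle band, where 47 of 59 gaps with a member held one, or 79.7% (67.2 to 89.0), against 45 of 124, or 36.3% (27.8 to 45.4). With 500 or more probes the shares were 43.6% (30.3 to 57.7) and 35.6% (21.9 to 51.2), with overlapping intervals. These bands were chosen after the values were seen, and the differences were not tested.

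Of the 1110 protein-coding receptor genes of the reference table, 115 had no named promoter, and 41 of these lay in gaps with members. In 26 cases the gene was the only unnamed coding receptor in its gap, and these gaps held 77 members. Some of these gaps also held other genes or pseudogenes. The 10 candidates with the highest-scoring member were Olfr854, Olfr1220, Olfr140, Olfr1022, Olfr1096, Olfr857, Olfr1253, Olfr1354, Olfr959 and Olfr780, all odorant receptors. The windows of Olfr854, Olfr1220 and Olfr1096 are printed above.

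The candidate gaps differed in how many arrays saw the signal. In what follows, the members given for a gene are those in its gap. Whether any of them belongs to that gene was not determined. Olfr1220 had 1 member, on all 3 arrays, as given above. In the gaps of Olfr1220, Olfr140, Olfr1354 and Olfr780 the table also names 1 promoter that could not be matched to the reference. Olfr140 had 6 members, from 2.54 to 20.25 on Stringent, of which 1 was on both High Coverage arrays and 3 on High Coverage 1 alone, and its gap also holds 3 receptor pseudogenes. Olfr1354 had 2 members, chr10:78349940-78350193 with scores of 7.84, 6.86 and 3.12 and chr10:78387558-78387804 with 8.31, 6.12 and 2.47, the first called on both High Coverage arrays and the second on High Coverage 1. Olfr854 had a second member, chr9:19371975-19372148, with 5.85 on Stringent against -0.56 and -0.07, and both its members were called on Stringent alone.

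Olfr1096 had 4 members side by side, 15506 to 16953 bp upstream of Olfr1095, on which the High Coverage arrays disagreed. chr2:86713435-86713948 scored 11.13 on Stringent, with 1.19 for High Coverage 1 but 13.4 for High Coverage 2. Only High Coverage 2 had called regions there, over 2 of the 4. Olfr1253 had 8 members within 4521 bp with Stringent scores of 2.81 to 8.71, none on both High Coverage arrays and 6 on neither. The gap of Olfr857, 198335 bp wide with 2 receptor pseudogenes and 1 other coding gene, held 6 members, 5 of them on neither array. Olfr1022 had 3, of which 2 were on neither. Olfr959 had 1 member, with a Stringent score of 7.71 and High Coverage scores of 5.77 and 2.76, called on High Coverage 1 alone. Olfr780 had 2, of which 1 was called, on High Coverage 2 alone.

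Among the candidates beyond the first 10, those on chromosome 17 scored at most 7.14 on Stringent, and their members were on both High Coverage arrays with 1 exception. This was not particular to the candidates, as 33 of all 44 members of their tiled block were on both. Gaps there without an unnamed coding receptor had 3 of 4 from Olfr103 to Olfr107 and 3 of 3 from Olfr126 to Olfr127. From Olfr93 to Olfr96, a gap with 2 unnamed coding receptors, 0 of 2 were on both. The gap of Olfr138, between Olfr135 and Olfr137, held 9 members with Stringent scores of 2.56 to 4.91. Of these, 8 were on both arrays, and the median High Coverage percentiles of the 9 were 98.7 and 97.6. Olfr761 had 4 members and Olfr132 had 3, all on both arrays. Olfr124, a receptor used in functional studies, had 1 member, chr17:37943966-37944089, with a Stringent score of 2.67 and High Coverage scores of 7.74 and 7.30.

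Of the other studied receptors without a named promoter, most had no far region in their gap. The gap of Olfr715, a neighbour of the P element enhancer, held 2 members, both on both High Coverage arrays and with a highest Stringent score of 13.51, given above, and 2 unnamed coding receptors. Olfr15 lay in a gap of 15.7 Mb with 6 members and another unnamed receptor, which does not single it out. Olfr16, Olfr151 and Olfr1019 had 0 members in their gaps, Olfr544 had no far probe there, and Olfr712 was not found in the order. The gaps of Olfr151 and Olfr1019 were only 22794 and 29447 bp wide, with 290 and 146 far probes. Most of each lay within 10000 bp of a named position, so the lack of a member there does not show that signal was absent.

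Other chemoreceptor families also lie in stretches with members. Trace amine receptors, most of which are olfactory receptors for amines, were 15 of the 452 coding genes before the first matched promoter of chromosome 10, Olfr1357, and 8 members lay there in the block chr10:23638212-23838084, with Stringent scores of at most 4.73 and 2 on both High Coverage arrays. Vomeronasal receptors, which detect pheromones and related cues, were 36 of the coding genes between Olfr1359 and Olfr466 on chromosome 13, a gap with 46 members of which 28 were on both arrays. Between Olfr1350 and Olfr291 on chromosome 7 there were 149 of them beside 35 members, 25 on both arrays. Before Olfr93 on chromosome 17 lay 10 members, 3 of them on both arrays. The 645 coding genes on that side include 14 Vmn1r and 29 Vmn2r vomeronasal and 7 formyl peptide receptors. All but 1 of these members lay only 25404 to 74302 bp from Olfr93, however, in the tiled block with 42 named odorant receptor positions. These stretches are long, and whether a member lies at any of these genes was not determined.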

How the data were processed

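Per the file headers, the authors ran MAT on each array alone (bandwidth 50, maximum gap 30, minimum 5 probes), which gave a score at each probe and a list of called regions per array. Each deposited region has a score, used here to rank regions within their list. The deposited promoter table lists single positions. The submitters' processing notes name mm9 as the build. Since no array was scaled to another, scores are comparable within an array only. The region lists held 3608 Stringent regions, 7266 from High Coverage 1 and 6311 from High Coverage 2.

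Probes at exactly 0 on all 3 arrays were taken as unscored, leaving 2188086 of 2313448 probes. A region was overlapped where at least 1 bp was shared. A member's High Coverage value was the highest score in it, given as it stands and as a percentile of that array's scored probes. Of 1085 promoter rows, 1030 matched the RefSeq gene table of GRCm38.p6, used for names and order only, and 986 gaps were in order. Promoter windows came from RefSeq of the same build.

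Regions named in the text were the 10 with the highest Stringent score, the 10 with the highest lower High Coverage percentile, the 10 highest without a High Coverage region, the 5 largest groups with ties, and 5 on each side of the limit. Candidates were ranked by the highest score of a member. The members and lists were chosen with earlier results of these data known. The chromosome 13, 17, 7 and 10 stretches and Olfr138, Olfr761 and Olfr132 were chosen after their values were seen. The labelled tissue could not be checked against marker genes without an annotation of mm9. The distance, block and overlap steps were tested on simulated data. Alternatives were other distances, overlaps, gaps, scores and region lists, each High Coverage array left out, and subsets of the members. Scripts ran in Python 3.11.15 with pandas 2.3.3, numpy 2.4.6 and scipy 1.17.1, and plots were drawn with matplotlib 3.10.9.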

Additional observations from a re-analysis of the deposited data

How the results depend on the processing

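The number and the High Coverage values of the far regions depended on the rule. Over 62 alternatives of 11 results, 20 stayed within the interval or within 1.5 times of the reported value and 42 moved. A distance over 5000 bp gave 927 regions, over 20000 bp 305 and over 50000 bp 183, and the higher part of the Stringent scores left 61. The share overlapped by High Coverage 1 was 35.1% with 50% overlap of both regions, 40.7% with as many top High Coverage regions as Stringent ones, 61.7% beyond 50000 bp, 60.7% in the higher part of the scores, 45.3% in blocks with a named promoter and 44.6% without chromosomes 13 and 17. For High Coverage 2 these were 34.9%, 34.7%, 57.9%, 60.7%, 41.3% and 40.7%, and 52.9% beyond 5000 bp. For both arrays they were 26.3%, 29.4%, 51.4%, 52.5%, 34.2% and 33.1%. For neither array they were 56.4%, 54.1%, 31.7%, 31.1%, 47.6% and 47.8%, and 37.1% beyond 5000 bp.

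At least 1 High Coverage array overlapped 57.4% of the members, and leaving out either array gave 46.8% to 50.3%. The median percentile fell to 84.6 on High Coverage 1 and 85.1 on High Coverage 2 with the mean score of a region, and was 96.9 and 95.5 beyond 50000 bp and 97.0 and 96.2 in the higher part of the scores. It was 93.4 on High Coverage 1 in blocks with a named promoter. Members lay in 129 blocks, in 267 with a block gap of 1000 bp and in 55 with one of 100000 bp. In gaps of at most 1 Mb, 28.8% of the members shared a gap with an unnamed coding receptor. Blocks with a named promoter, the chromosomes left out and the joining of members within 10 bp were chosen after seeing the data. The cause of these shifts was not tested. No paired analysis was possible because the groups share 1 replicate number only. The arrays give no replicate of the Stringent product, so a region seen there alone has no check, and a region near the 2.52 threshold stood only just above it.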
